A study of Mus musculus with 1012 samples.

Results

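Collagen genes were examined across the libraries of a study that set Live-seq, which draws part of the cytoplasm out of a living cell and sequences the RNA in it, beside scRNA-seq of whole, lysed cells. The members were taken by name: all protein-coding genes whose mouse symbol is Col, a number, a and a number, which gave 43 of the 30450 Ensembl rows in the count table and of the 17517 protein-coding rows among them. The rule uses gene symbols and biotype alone.

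Collagens are secreted proteins whose alpha chains wind into a helical trimer, and they make up most of the protein of the extracellular matrix. Fibril-forming collagens (types I, II, III, V, XI, XXIV and XXVII) assemble into the fibrils that carry load, fibril-associated collagens (such as XII, XIV and XVI) bind to the surface of those fibrils, type IV collagen forms the network of basement membranes, and type VI collagen forms beaded filaments between the fibrils and the cell. Preadipocytes and other stromal cells of fat lay down a fibrillar matrix, and a maturing adipocyte surrounds itself with a basement membrane and type VI collagen. Macrophages are not known as a main source of fibrillar collagen.

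The mesenchymal cells were of 3 states. IBA cells are an immortalized line of brown preadipocytes derived from stromal vascular cells of the interscapular brown fat depot of young male C57BL6/J mice. ASPCs are primary adipose stem and progenitor cells from the subcutaneous fat of female C57BL/6J mice aged 7 to 10 weeks, of which the number of animals is not given, and they were collected untreated (ASPC_Pre) or 2 days after adipogenic induction with dexamethasone, isobutylmethylxanthine, insulin and rosiglitazone (ASPC_Post). A part of the ASPCs sampled by Live-seq before and after induction carried lentiviral GFP barcodes. The background was RAW-G9, a clone of the mouse macrophage line RAW264.7 with a Tnf-mCherry reporter and an EGFP-Rela fusion, either untreated (RAW_Mock) or treated with lipopolysaccharide (RAW_LPS). The Live-seq cells of batch 5Reseq were RAW264.7 cells instead. The series design text gives the lipopolysaccharide as 40 ng per ul and the study's methods give it as 100 ng per ml, with sampling 4 to 5 h later.

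The libraries were 296 of Live-seq, 162 of scRNA-seq on IBA cells lysed after Live-seq or, as controls, without it (batch 8_1), and the remainder of scRNA-seq on other whole cells. Counts of the cells of the same state, technique and batch were added up, which gave 15 sums for Live-seq, 12 for scRNA-seq and 3 for batch 8_1. A sum needed 3 cells, so the 1 untreated RAW264.7 library of Live-seq batch 5Reseq entered none. The study speaks of experimental replicates, but nothing in the sources says that batches were separate cultures or animals. The p-values therefore measure only how sums of the same state vary over batches. Where a fit holds batch as a block, shifts common to all states of a batch are taken out first. The states of a fit, RAW included, share the estimate of that spread. Among the mesenchymal sums, IBA had 3 in each technique, ASPC_Pre had 2 in each and ASPC_Post had 1 in each. In such sums, fewer cells expressing a gene and less RNA of it per cell cannot be told apart. Levels are given as CPM, a gene's counts scaled by the total of the counts that were kept, and as CPM per kb of exon where genes are compared with one another. The sums held 1410305 to 34325221 kept counts, and the median library had 358707 (Live-seq), 360205 (scRNA-seq) or 387352 (batch 8_1). Reads carried no molecular identifiers, so intervals cover counting error only.

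The summed levels of mesenchymal and macrophage markers went with the labels in all but 1 library. Of 6 mesenchymal markers, all were counted in each ASPC state, with 1454.3 to 6631.4 CPM in sum, and IBA sums held 766.5 to 3620.2 CPM, while RAW sums held at most 5.09 CPM. The exception was 1 IBA library of scRNA-seq batch 9_1, with 31781 CPM of macrophage markers, 0 CPM of mesenchymal markers and 9 collagen counts of 572921. Leaving it out raised the IBA levels of that batch by 1.86% for a gene it did not express. Taken singly, the mesenchymal markers were not all found in IBA cells. Of the 6, 5 reached 3 counts in IBA by scRNA-seq and 5 by Live-seq, where Thy1 was at 0. All 6 did so in the IBA cells not sampled and in those lysed 1 h after Live-seq. In those lysed 4 h after it, 4 did, and Dcn was at 0. Of the defining markers of mature adipocytes, Adipoq and Cidec were at 0 in ASPC_Post of both techniques. The summed level of 7 adipocyte markers was 738.2 CPM by scRNA-seq and 441.05 CPM by Live-seq in ASPC_Post, against 123.7 to 569.2 and 0.499 to 115.5 CPM in ASPC_Pre. This sum was not particular to induced cells. It was 214.7 to 475.7 CPM by scRNA-seq and 267.2 to 764.2 CPM by Live-seq in IBA. By scRNA-seq it was 320.2 to 1156.3 CPM in RAW_Mock and 606.1 to 1383 CPM in RAW_LPS.

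Of the 43 collagen genes, 24 reached 10 CPM in at least 1 of the 15 mesenchymal sums, 15 reached 100 CPM and 8 reached 1000 CPM. The other 19 stayed below, with the highest, Col2a1 of cartilage, at 8.86 CPM in IBA cells of batch 8_1, and 2 genes (Col13a1 and Col26a1) had no count in any library. By class, 8 of 11 fibril-forming, 3 of 8 fibril-associated, 4 of 6 basement membrane and 4 of 6 beaded filament chains reached 10 CPM. The same held for 1 of 3 short-chain collagens, for the anchoring fibril collagen Col7a1, for both multiplexins and for Col28a1, and for 0 of 4 transmembrane collagens. A core of 13 genes had 3 or more counts in each of the 15 sums. The filter on low counts was passed by 25 members, and 18 did not pass it and were not tested.

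**Figure D1:**
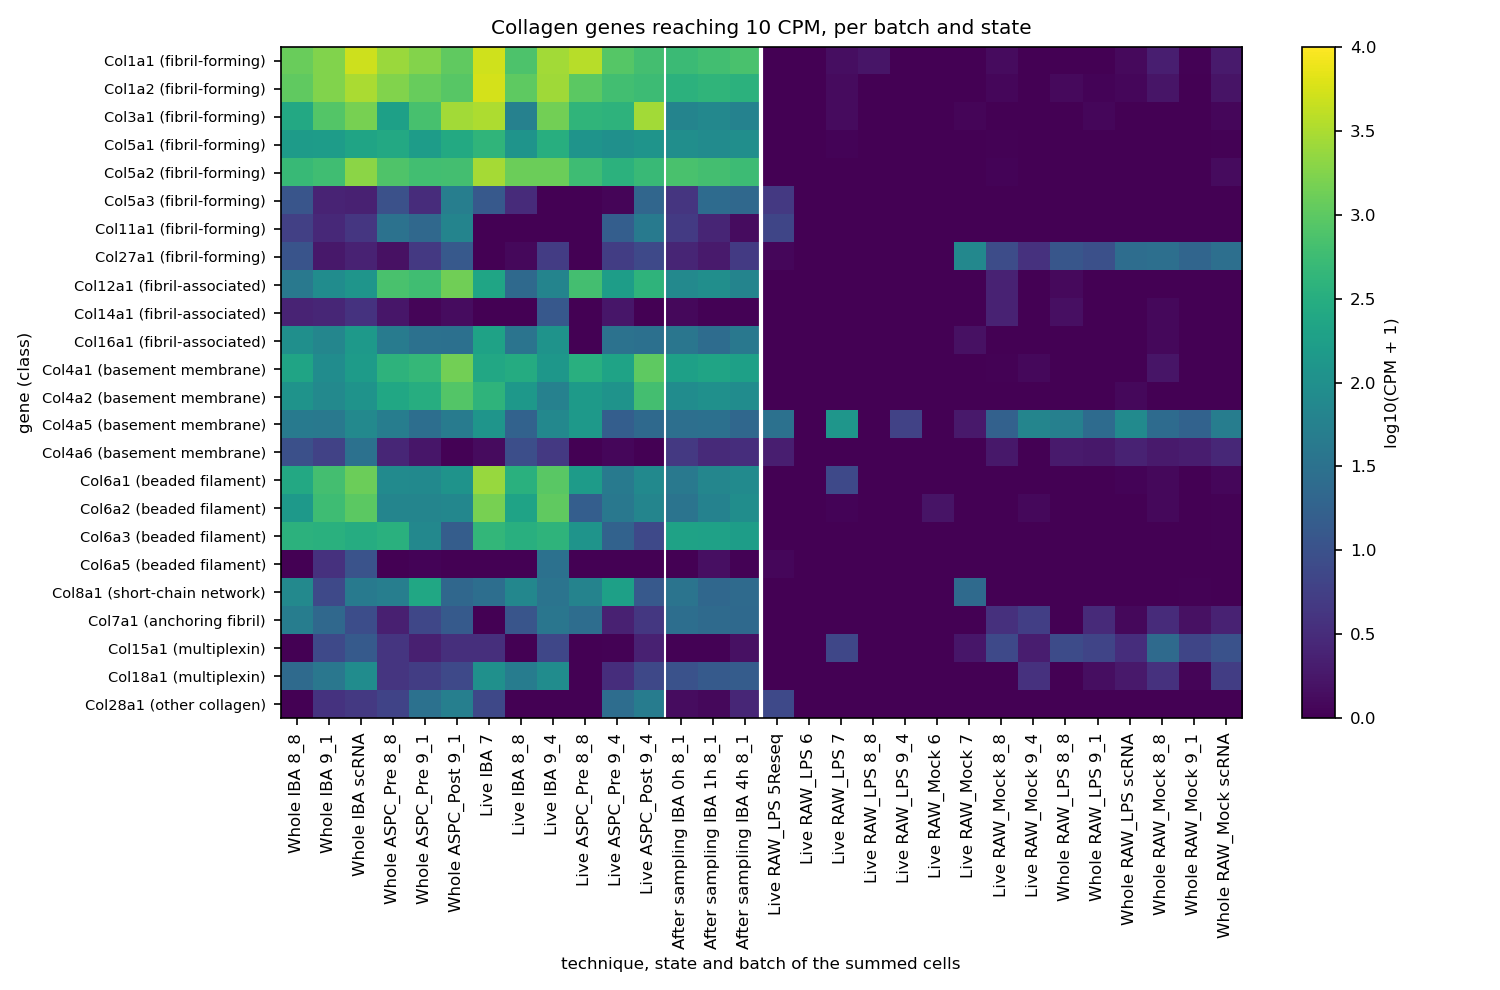
Heat map of the level of the 24 collagen genes that reached 10 CPM (rows, by class) in each of the 30 sums (columns, by state, technique and batch), coloured by log10(CPM + 1). The fibril-forming genes Col1a1, Col1a2, Col3a1 and Col5a2 fill the upper rows of all mesenchymal columns, and the 15 RAW columns are near 0 in them, with colour left mainly in Col4a5 and Col27a1.

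Collagens together took 0.465% to 1.52% of the kept counts of IBA cells by scRNA-seq (mean 0.899% ± 0.553, SD, n = 3) and 0.471% to 2.30% by Live-seq (1.31% ± 0.93, SD, n = 3). The ASPC_Pre sums lay at 0.643% and 0.749% by scRNA-seq and at 0.324% and 0.740% by Live-seq, and ASPC_Post at 0.973% and 0.694%. These ranges overlap between IBA and ASPC. The IBA sums of batch 8_1 held 0.256% to 0.270%, below every IBA sum of the other batches, and no RAW sum passed 0.0155%. The make-up of the collagen counts is given by state. Type IV chains Col4a1 and Col4a2 made up 22.9% and 23.5% of the collagen counts of ASPC_Post, 6.54% to 11.99% in ASPC_Pre and 1.62% to 8.91% in IBA outside batch 8_1. Type VI chains Col6a1, Col6a2 and Col6a3 made up 16.5% to 21.7% in those IBA sums, 3.05% to 6.57% in ASPC_Pre and 2.04% and 2.15% in ASPC_Post. In the IBA sums of batch 8_1, the type IV chains made up 10.4% to 11.6% and the type VI chains 10.7% to 12.9%. These shares are a description, with no test.

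Per kb of exon, Col1a1, which encodes the alpha 1 chain of type I collagen (ENSMUSG00000001506, chr11:94936224-94953042, plus strand; build GRCm38), was the highest collagen in all of the 15 mesenchymal sums except the ASPC_Post sums and the IBA sum of Live-seq batch 8_8, where Col5a2 was higher. Its level per kb was 187.4, 263.2 and 761.9 CPM in the IBA sums of scRNA-seq batches 8_8, 9_1 and scRNA, 377.1 and 278.1 CPM in the ASPC_Pre sums of batches 8_8 and 9_1, and 161.6 CPM in ASPC_Post. Col3a1, the chain of type III collagen (ENSMUSG00000026043, chr1:45311538-45349706, plus strand), was the highest collagen per kb in ASPC_Post, at 279.7 CPM by scRNA-seq and 279.5 CPM by Live-seq, where Col4a1 came next at 185.2 and 133.9 CPM. In IBA cells Col4a1 was at 28.8, 11.7 and 20.9 CPM per kb by scRNA-seq.

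Partner chains of the same collagen type kept unequal levels. Type I collagen holds more alpha 1 than alpha 2 chains, and the ratio of Col1a1 to Col1a2 per kb was 1.43 to 6.99 over the 15 mesenchymal sums, with a median of 2.65 and the highest value in the ASPC_Pre sum of Live-seq batch 8_8. Col4a1 to Col4a2 had a median of 1.63 and ran from 0.554, in the IBA sum of Live-seq batch 7, to 2.07. Col5a2 exceeded Col5a1 per kb in each of the 15 sums, by 2.12 to 9.71 times. Across cells of the same sum, Pearson's r of log2(CPM + 1) between Col1a1 and Col1a2 was 0.534 to 0.916 in the 6 scRNA-seq sums (15 to 93 cells each) and 0.513 to 0.959 in the 6 Live-seq sums. For Col4a1 and Col4a2 it was 0.291 to 0.932 by scRNA-seq and -0.024 to 0.632 by Live-seq. The values of a point share library and depth, cells without a count enter the correlation, and it is given as a description.

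The sequences upstream of 3 members are shown as examples, chosen after their values were seen. In both techniques the ASPC_Post sum lay above each ASPC_Pre sum for Col3a1 and Col5a3 and below each for Col8a1. Other members did the same, among them Col4a1, Col4a2, Col11a1 and Col28a1 above and Col1a1, Col1a2 and Col6a3 below. They come from RefSeq promoter windows of build GRCm38.p6, hold the 250 bases before the annotated start, and are written 5′ to 3′ on the strand of the gene. Capitals mark 3 motifs that were searched on both strands, the CCAAT box, the GC box GGGCGG and the TATA box TATAAA, so that CCGCCC is GGGCGG on the other strand. The windows lie at chr1:45311288-45311537 (plus strand), chr9:20815068-20815317 (minus strand) and chr16:57754738-57754987 (minus strand).
Col3a1: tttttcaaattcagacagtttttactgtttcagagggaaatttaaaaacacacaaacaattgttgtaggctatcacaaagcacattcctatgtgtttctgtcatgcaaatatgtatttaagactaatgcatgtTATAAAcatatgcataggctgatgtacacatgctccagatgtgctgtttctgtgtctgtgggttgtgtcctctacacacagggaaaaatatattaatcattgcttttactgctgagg
Col5a3: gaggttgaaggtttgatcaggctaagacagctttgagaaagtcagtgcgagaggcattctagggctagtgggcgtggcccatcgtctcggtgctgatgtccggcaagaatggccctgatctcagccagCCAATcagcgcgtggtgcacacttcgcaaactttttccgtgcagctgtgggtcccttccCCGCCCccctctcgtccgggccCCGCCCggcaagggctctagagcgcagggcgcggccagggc
Col8a1: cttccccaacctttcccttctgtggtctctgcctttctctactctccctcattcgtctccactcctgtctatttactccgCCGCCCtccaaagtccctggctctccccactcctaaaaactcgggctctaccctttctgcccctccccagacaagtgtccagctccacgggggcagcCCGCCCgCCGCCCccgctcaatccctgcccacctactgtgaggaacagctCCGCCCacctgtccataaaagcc
Among 32851 windows of the same length, 33.9% held CCAAT, 32.7% held GGGCGG and 12.4% held TATAAA. A window was matched to 34 collagen genes, of which 12 held CCAAT, 21 held GGGCGG and 5 held TATAAA. A match describes letters in the window and not a bound site.

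Col4a1 and Col4a2 are transcribed away from each other, and their first exons overlap by 22 bases at chr8:11312805-11312826, printed here on the plus strand because both genes' levels are reported from reads counted without strand.
Col4a1 and Col4a2 overlap: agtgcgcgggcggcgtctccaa
Reads of this overlap cannot be assigned to either gene. Col4a5 and Col4a6 on chromosome X start 1308 bases apart, also facing away from each other. Among the other members, Col18a1 overlaps Slc19a1 on the opposite strand (32.8 CPM over the mesenchymal sums) and Col5a2 overlaps the annotated transcript Gm38211 on its own strand (38.7 CPM), so part of their reads cannot be told apart.

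The first comparison asked which collagens differed between untreated primary ASPCs and the IBA line. By scRNA-seq, 4 of the 25 members tested were called with edgeR (a call needs an adjusted p below 0.05 and more than a change of 1 on the log2 scale), beside 11.2% of all 13563 genes. Higher in ASPC_Pre were 3 members (7.47% of all genes): Col12a1, Col4a2 and Col11a1. Lower was 1 member, Col6a1 (3.69% of all genes). The median log2 fold change was 0.34 over the tested collagens and 0.12 over all genes tested. An unadjusted p below 0.05 was reached by 10 of the 25 members and by 4091 of all 13563 genes.

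Col12a1, a fibril-associated collagen (ENSMUSG00000032332, chr9:79598991-79718831, minus strand), stood at 41.1, 87.97 and 119.9 CPM in the IBA sums of batches 8_8, 9_1 and scRNA and at 701.7 and 596.2 CPM in the ASPC_Pre sums of batches 8_8 and 9_1. The groups did not overlap, and it rose in ASPC_Pre (log2 fold change 3.66 ± 0.56 (SE), adjusted p = 0.0115). With DESeq2 the call was lost (adjusted p = 0.23), as it was without batch 9_1 (adjusted p = 0.0868). By Live-seq, Col12a1 was at 219.7, 22.2 and 62.02 CPM in the IBA sums of batches 7, 8_8 and 9_4 and at 626.5 and 168.9 CPM in the ASPC_Pre sums of batches 8_8 and 9_4. There the groups overlapped, since the IBA sum of batch 7 exceeded the ASPC_Pre sum of batch 9_4, and within the 2 batches that held both states the ratio was 28.2 and 2.72. In the ASPC_Pre sum of Live-seq batch 8_8, 1 of the 12 cells with a count gave 49.3% of the counts.

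Col4a2, a chain of type IV collagen (ENSMUSG00000031503, chr8:11312805-11449287, plus strand), was at 111.5, 75.4 and 113.7 CPM in IBA and 241.2 and 306.2 CPM in ASPC_Pre by scRNA-seq. Every ASPC_Pre sum was above every IBA sum, and Col4a2 rose (log2 fold change 1.98 ± 0.36 (SE), adjusted p = 0.0138). The call was lost without batch 9_1 (adjusted p = 0.205) and without the RAW sums in the fit (adjusted p = 0.051). Its partner Col4a1 (ENSMUSG00000031502, chr8:11198423-11312826, minus strand) was at 215.1, 87.3 and 156.3 CPM in IBA and 379.3 and 464.2 CPM in ASPC_Pre. It did not pass the test (log2 fold change 1.88 ± 0.73 (SE), adjusted p = 0.137), although its groups did not overlap either. By Live-seq, Col4a1 was at 253.1, 286.4 and 129.5 CPM in IBA and 333.7 and 206.3 CPM in ASPC_Pre, with ratios of 1.17 in batch 8_8 and 1.59 in batch 9_4.

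Col11a1, a fibril-forming chain that joins type I and V fibrils (ENSMUSG00000027966, chr3:114030540-114220718, plus strand), was at 4.79, 1.91 and 3.26 CPM in IBA and 31.1 and 21.8 CPM in ASPC_Pre by scRNA-seq. The IBA sums lay lower throughout, and Col11a1 rose in ASPC_Pre (log2 fold change 3.40 ± 0.72 (SE), adjusted p = 0.0452), a call that was lost when any 1 of the 3 batches was left out (adjusted p = 0.0703 without 8_8, 0.367 without 9_1 and 0.0719 without scRNA). By scRNA-seq, 1 cell gave all of its counts in each of the IBA sums of batches 8_8 and 9_1. In the ASPC_Pre sum of batch 8_8, 1 of 4 cells with a count gave 50.8%. By Live-seq Col11a1 had no count in the 3 IBA sums or in the ASPC_Pre sum of batch 8_8. It was at 14.8 CPM in that of batch 9_4, at least 38.7-fold above the floor of 3 counts in the IBA sum of batch 9_4. There 60.4% of the ASPC_Pre counts came from 1 of the 6 cells that had any.

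Type VI collagen ran the other way. Col6a1 (ENSMUSG00000001119, chr10:76708792-76726168, minus strand) was at 254.3, 630.01 and 1244.9 CPM in IBA and 82.2 and 77.5 CPM in ASPC_Pre by scRNA-seq, without overlap, and fell (log2 fold change -2.01 ± 0.48 (SE), adjusted p = 0.0314). The call was lost without batch 9_1 (adjusted p = 0.165) and without batch scRNA (adjusted p = 0.097). Col6a2, which joins Col6a1 in the type VI trimer, was at 137.99, 565.8 and 979.2 CPM in IBA and 65.2 and 65.7 CPM in ASPC_Pre and missed the threshold (log2 fold change -1.85 ± 0.54 (SE), adjusted p = 0.0551). It passed without the batch term (adjusted p = 0.0393) and without the IBA library that went against its label (adjusted p = 0.0466). In Live-seq, Col6a1 was at 2406.4, 346.8 and 931.9 CPM in IBA and 154.9 and 43 CPM in ASPC_Pre, and Col6a2 at 1524.6, 210.1 and 1041 CPM in IBA and 14.5 and 38.6 CPM in ASPC_Pre. No ASPC_Pre sum of either technique reached the lowest IBA sum outside batch 8_1 for these chains, but the IBA sums of batch 8_1, at 40.9, 67.2 and 81.98 CPM of Col6a1, were as low as those of ASPC_Pre. Col6a3, the long chain, was at 373.5, 348.4 and 301.4 CPM in IBA and 344.8 and 72.01 CPM in ASPC_Pre by scRNA-seq, so that its 2 ASPC_Pre sums differed more from each other than the 3 IBA sums did.

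Col1a1, Col1a2 and Col3a1, the chains of the main fibrils, were not called in this comparison. Col1a1 was at 1229.8, 1727.5 and 5000.4 CPM in IBA and 2474.8 and 1825 CPM in ASPC_Pre (log2 fold change 0.84 ± 0.56 (SE), adjusted p = 0.346). The IBA sums spanned a wider range than the distance between the states. Col3a1 was at 259.3, 843.5 and 1509.2 CPM in IBA and 185.8 and 686.7 CPM in ASPC_Pre (log2 fold change -0.12 ± 0.45 (SE), adjusted p = 0.888). Type V collagen, which sets fibril diameter together with type I, was not called either. Col5a1 was at 153.4, 162.2 and 216.4 CPM in IBA and 260.2 and 163.96 CPM in ASPC_Pre, and Col5a2 at 493.6, 597.4 and 1983.4 CPM in IBA and 788.3 and 617.99 CPM in ASPC_Pre, with overlap between the states for both.

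Of the low-level collagens, Col28a1 was at 0, 2.89 and 3.54 CPM in IBA and 5.35 and 30.5 CPM in ASPC_Pre (log2 fold change 4.43 ± 1.10 (SE), adjusted p = 0.063). Col18a1, the basement membrane collagen that gives rise to endostatin, was at 23.1, 37.9 and 87.5 CPM in IBA and 3.16 and 4.27 CPM in ASPC_Pre (log2 fold change -2.67 ± 1.06 (SE), adjusted p = 0.127). Both lay without overlap between the states by scRNA-seq and missed the threshold, and both passed it when the RAW sums were left out of the fit (adjusted p = 0.0467 and 0.0329). Col7a1 of anchoring fibrils was at 48.98, 21.6 and 7.91 CPM in IBA and 1.22 and 6 CPM in ASPC_Pre (log2 fold change -2.93 ± 1.36 (SE), adjusted p = 0.184). Col4a6, a basement membrane chain, was at 8.34, 5.05 and 30.3 CPM in IBA and 1.70 and 0.74 CPM in ASPC_Pre (log2 fold change -2.63 ± 0.82 (SE), adjusted p = 0.0676), and DESeq2 called it lower (adjusted p = 0.0175). The fibril-associated Col16a1 was at 96.7, 68.2 and 142.4 CPM in IBA and 45.2 and 30.2 CPM in ASPC_Pre (log2 fold change -0.92 ± 0.60 (SE), adjusted p = 0.35). Col6a5, which can replace Col6a3 in type VI collagen, reached 30.2 CPM in the IBA sum of Live-seq batch 9_4, where 91.1% of its counts came from 1 of the 2 cells that had any. Col14a1 stayed at 1.46, 1.68 and 2.79 CPM in IBA and 0.729 and 0.123 CPM in ASPC_Pre by scRNA-seq.

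In Live-seq, 0 of the 25 members tested were called by edgeR, beside 0.0223% of all 13463 genes (0.0149% higher and 0.00743% lower). An unadjusted p below 0.05 was reached by 530 of all genes and by 2 members, Col6a2 (log2 fold change -4.08 ± 1.17 (SE), unadjusted p = 0.00501, adjusted p = 0.854) and Col18a1 (unadjusted p = 0.0301). DESeq2 called 2.05% of all genes and 2 members, Col6a2 (adjusted p = 0.0487) and Col11a2, which had 0 counts in each IBA sum and 0 and 5 counts in the ASPC_Pre sums. Directions within single batches are given as a description and were not counted over all genes. Of the 24 genes above 10 CPM, 17 gave a ratio in each of the 4 pairs of ASPC_Pre and IBA from the same batch (8_8 and 9_1 by scRNA-seq, 8_8 and 9_4 by Live-seq). Higher in ASPC_Pre in all 4 pairs were 3 genes (Col12a1, Col4a1 and Col4a2), lower in all 4 were 6 (Col6a1, Col6a2, Col6a3, Col4a6, Col16a1 and Col18a1), and 8 had mixed signs, among them Col1a1, Col1a2 and Col3a1. A test of whether the difference between ASPC_Pre and IBA itself differed between the techniques called 0 of 25 members with edgeR, beside 0% of 13563 genes, with 0 members at an unadjusted p below 0.05. DESeq2 called 0.649% of all genes and 1 member, Col11a2, on the same 5 counts in Live-seq.

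**Figure D2:**
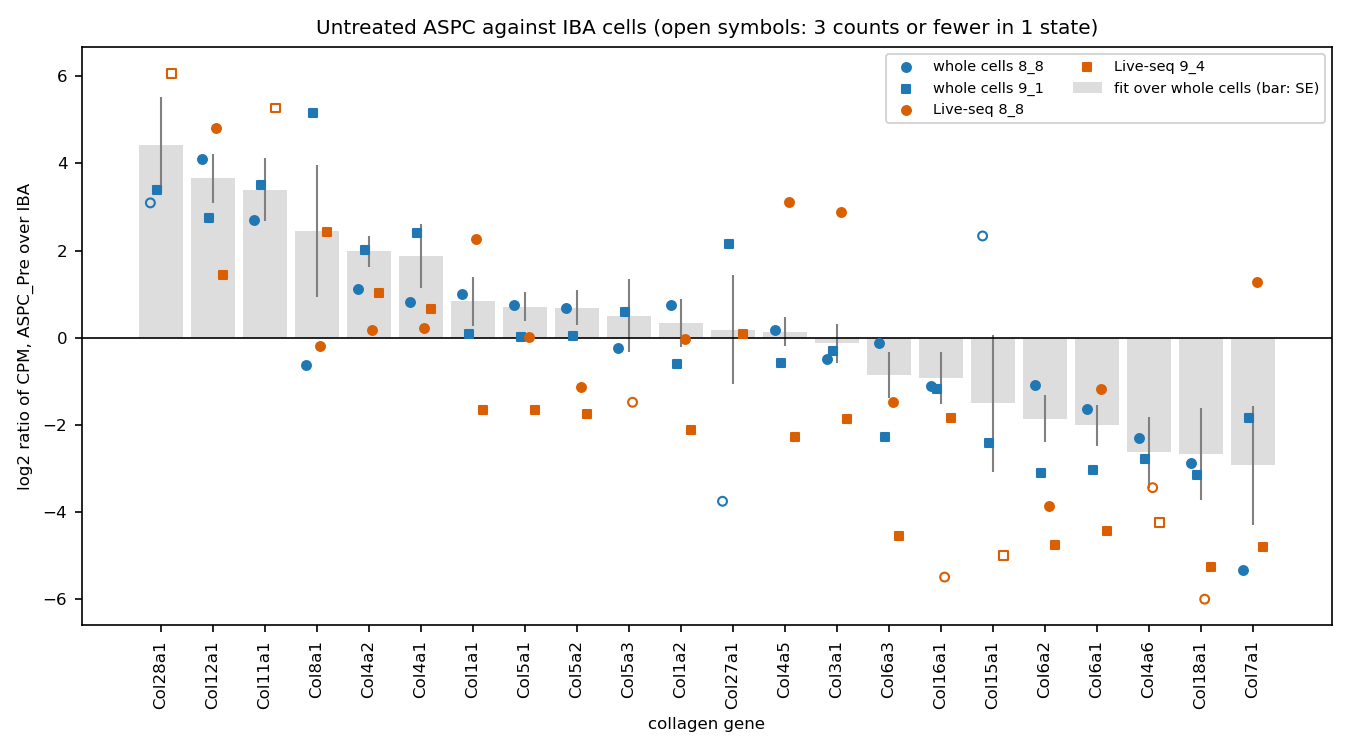
Log2 ratio of ASPC_Pre over IBA for 22 collagen genes, with 1 point for each batch and technique that held both states and a grey bar for the scRNA-seq estimate with its SE; open symbols mark ratios with 3 counts or fewer in 1 state. The 4 points of Col12a1, Col4a1 and Col4a2 lie above 0 and those of Col6a1, Col6a2 and Col6a3 below 0, while the points of Col1a1 and Col3a1 fall on both sides.

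Markers of other cell types moved with this comparison. The 4 mesothelial markers in the table summed to 36.5 to 162.2 CPM in ASPC_Pre by scRNA-seq and 37.2 to 213.99 CPM by Live-seq, against 1.24 to 15.01 and 4.63 to 19.7 CPM in IBA. The 5 endothelial markers summed to 14.8 to 22.1 and 6.35 to 47.6 CPM in ASPC_Pre against at most 2.08 CPM in IBA, with Cdh5 and Emcn at 0 in ASPC_Pre of both techniques. Macrophage markers summed to at most 86 CPM in ASPC_Pre and, with the library described above, to at most 606.7 CPM in IBA. Their part in the collagen differences was not tested.

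Adipogenic induction was compared next, ASPC_Post against ASPC_Pre, in 1 fit over both techniques. With edgeR, 0 of 25 collagens and 0% of the 13562 genes tested were called, and 7 collagens had an unadjusted p below 0.05, as did 600 genes in all. DESeq2 called 0 collagens and 99 genes. The median log2 fold change was 0.54 over the tested collagens and 0.05 over all genes. There was 1 ASPC_Post sum for each technique, so the values describe those sums beside the ASPC_Pre sum of the same batch, 9_1 for scRNA-seq and 9_4 for Live-seq, and that of batch 8_8.

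The lowest p of the family belonged to Col4a2, a type IV chain. Col4a1 was at 1382.5 CPM in ASPC_Post against 464.2 CPM in ASPC_Pre of the same batch and 379.3 CPM in batch 8_8 by scRNA-seq. By Live-seq it was at 999.5 CPM against 206.3 and 333.7 CPM. ASPC_Post lay above each ASPC_Pre sum in both techniques, by 2.98 and 4.85 times within the batch, without a call (log2 fold change 2.34 ± 0.86 (SE), unadjusted p = 0.0166, adjusted p = 0.918). Col4a2 went from 306.2 to 849.9 CPM within the scRNA-seq batch and from 112.6 to 632.9 CPM within the Live-seq batch (log2 fold change 2.33 ± 0.65 (SE), unadjusted p = 0.00194, adjusted p = 0.404). Its ratios were 2.78 and 5.62, again above each ASPC_Pre sum.

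Among the fibril-forming collagens, Col3a1 was at 2745.2 CPM in ASPC_Post by scRNA-seq, where the ASPC_Pre sums held 686.7 CPM in batch 9_1 and 185.8 CPM in batch 8_8. By Live-seq ASPC_Post held 2743.5 CPM, against 389.8 and 416.7 CPM. The ratio within the batch was 4.00 and 7.04 (log2 fold change 1.93 ± 0.81 (SE), unadjusted p = 0.0271, adjusted p = 1), and ASPC_Post exceeded ASPC_Pre throughout. Col1a1 and Col1a2 had the opposite sign in both batches, with Col1a1 at 1825 CPM before and 1060.7 CPM after induction by scRNA-seq and at 873.3 and 628.2 CPM by Live-seq (log2 fold change -0.73 ± 0.94 (SE), unadjusted p = 0.451, adjusted p = 1).

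Col5a3, a minor type V chain, was at 49.8 CPM in ASPC_Post by scRNA-seq and 19.6 CPM by Live-seq, against 8.75 and 2.26 CPM in the ASPC_Pre sums of scRNA-seq and 0 and 0.126 CPM in those of Live-seq. It was higher in both (log2 fold change 6.598 ± 1.88 (SE), unadjusted p = 0.00664, adjusted p = 0.661), and the newer quasi-likelihood fit of edgeR called it (log2 fold change 5.35, adjusted p = 0.0182), the only collagen among the 29 genes that this fit called. A single cell gave 53.3% of its counts in the scRNA-seq sum, and a single cell gave 57.3% in the Live-seq sum. Col11a1 went from 21.8 to 63.5 CPM by scRNA-seq and from 14.8 to 41.6 CPM by Live-seq. Col12a1 went from 596.2 to 1367 CPM and from 168.9 to 398.4 CPM, although by Live-seq the ASPC_Pre sum of batch 8_8 was higher, at 626.5 CPM. In that sum, 1 of the 12 cells with a count gave 49.3% of the counts. The median cell there was at 111.1 CPM, against 156.4 CPM in ASPC_Post by Live-seq.

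Besides type I collagen, Col8a1 and Col6a3 stood lower after induction. Col8a1, a short-chain collagen (ENSMUSG00000068196, chr16:57624258-57754737, minus strand), was at 20.7 CPM in ASPC_Post against 240.2 and 49.6 CPM in ASPC_Pre by scRNA-seq, and at 11.9 against 184.1 and 61.6 CPM by Live-seq. It was 11.6 and 15.5 times lower within the batch (log2 fold change -2.93 ± 1.81 (SE), unadjusted p = 0.127, adjusted p = 1). Col6a3 was at 14.2 CPM against 72.01 and 344.8 CPM, and by Live-seq at 6.63 against 17.2 and 118.5 CPM (log2 fold change -2.63 ± 0.98 (SE), unadjusted p = 0.0182, adjusted p = 0.934). For both genes the ASPC_Post sum was the lowest ASPC sum of its technique.

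Of the 24 genes above 10 CPM, 22 gave a ratio within the batch in both techniques. Higher after induction in both were 16, lower in both were 5 (Col1a1, Col1a2, Col6a3, Col8a1 and Col16a1) and 1, Col14a1, had mixed signs on few counts. These directions were not counted over all genes. In the fit, 18 of 25 collagens and 7045 of 13562 genes had a positive log2 fold change. Of the 16, Col5a3 and Col15a1 had 2 and 1 ASPC_Pre counts in Live-seq. By scRNA-seq, Col5a2 and Col6a2 rose 1.04 and 1.09 times, and Col16a1 fell 1.05 times. The 4 mesothelial markers, at 36.5 to 213.99 CPM in ASPC_Pre, were at 0.290 CPM in ASPC_Post by scRNA-seq and 0.0626 CPM by Live-seq, with Msln, Upk3b and Wt1 at 0. Of these, Wt1 by scRNA-seq and Upk3b by Live-seq were at 0 in ASPC_Pre as well. Endothelial markers were at 7.84 and 1.501 CPM. Their part in the differences was not tested.

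**Figure D3:**
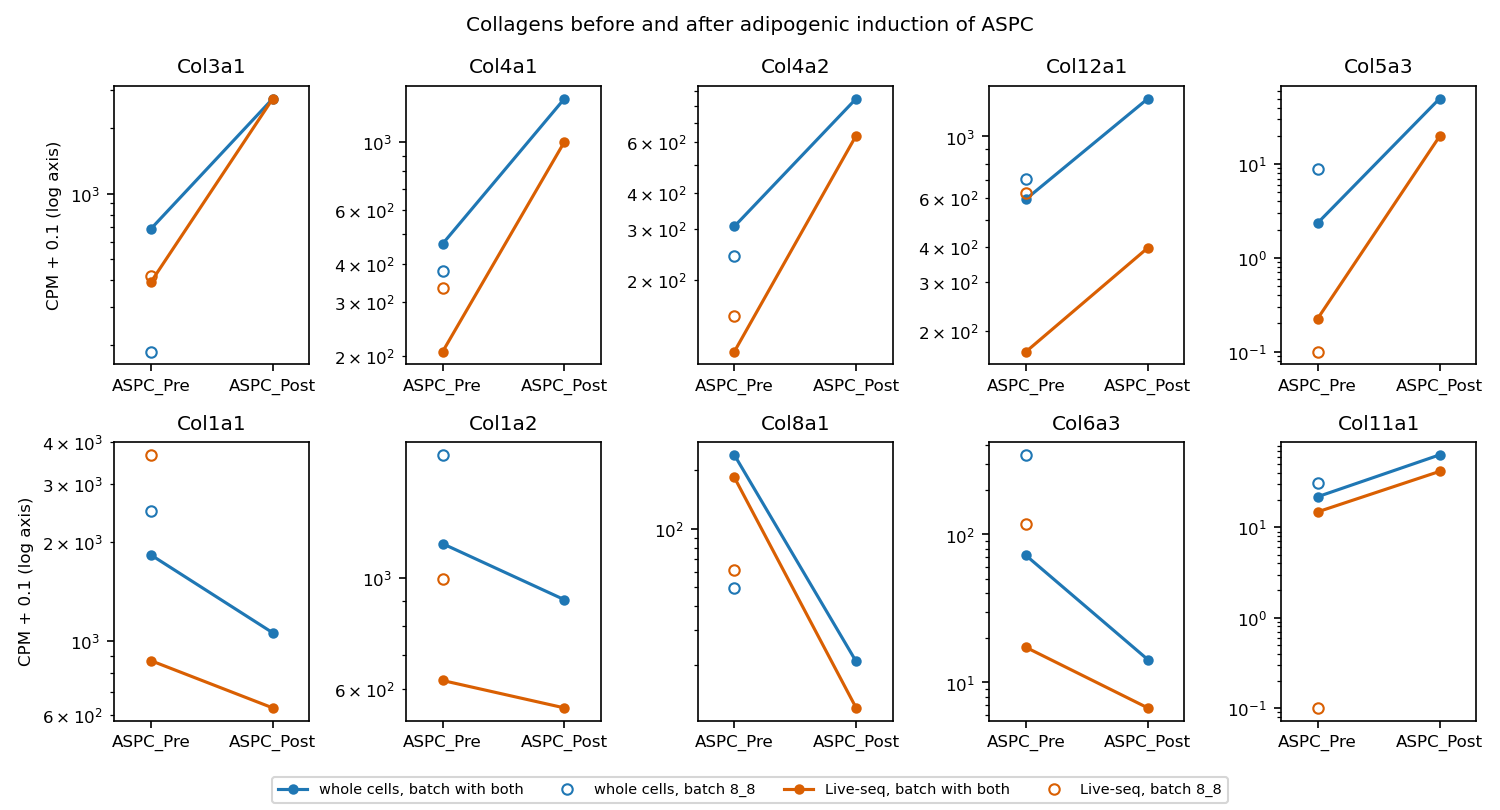
Level of 10 collagen genes in ASPC_Pre and ASPC_Post (CPM + 0.1, log axis), with lines joining the sums of the same batch, filled symbols for batches 9_1 (scRNA-seq) and 9_4 (Live-seq) and open symbols for batch 8_8. Col3a1, Col4a1 and Col4a2 slope upward in both techniques, Col8a1 and Col6a3 downward, and Col1a1 slightly downward.

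The spread over single cells differed between genes. Col1a1 had a median of 906.1 CPM over 44 ASPC_Pre cells and 118.3 CPM over 35 ASPC_Post cells by scRNA-seq (batch 9_1), and 619.2 CPM over 43 and 123.3 CPM over 37 cells by Live-seq (batch 9_4). The 90th percentile, 2643.8 and 2902.1 CPM by scRNA-seq and 1445.9 and 1424.3 CPM by Live-seq, moved by less than the median did. The median cell thus held less Col1a1 after induction, while the 90th percentile stayed similar. By Live-seq, 12 of 37 ASPC_Post cells had no Col1a1 count, against 3 of 43 ASPC_Pre cells.

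Col3a1 had a median of 398.5 CPM before induction by scRNA-seq, with the median after induction at 2.16 times that level, and of 173.98 CPM before and 474.1 CPM after by Live-seq. Its lower quartile went from 189.997 to 175.4 CPM by scRNA-seq and from 27.98 to 93.8 CPM by Live-seq. Its upper quartile went from 805.1 to 2746.5 CPM by scRNA-seq and from 513.8 to 1220.7 CPM by Live-seq, and the 90th percentile from 1532.4 to 7951.4 and from 994.4 to 6929.5 CPM. For Col4a1 the median went from 312.8 to 898.9 CPM and from 122.1 to 613.5 CPM, and the lower quartile from 129.4 to 460.6 and from 15.4 to 105.1 CPM. The Col4a2 median went from 219.01 to 305.9 CPM by scRNA-seq and from 81.6 to 197.7 CPM by Live-seq. Its lower quartile went from 83.3 to 106.6 and from 0.676 to 33.9 CPM, and its upper quartile from 327.6 to 1274.7 and from 168.7 to 714.1 CPM. Col8a1 had a median of 113.4 CPM before and 2.50 CPM after induction by scRNA-seq and of 43.03 and 0 CPM by Live-seq. These cells share a batch and are not replicates, so no test was made on them.

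**Figure D4:**
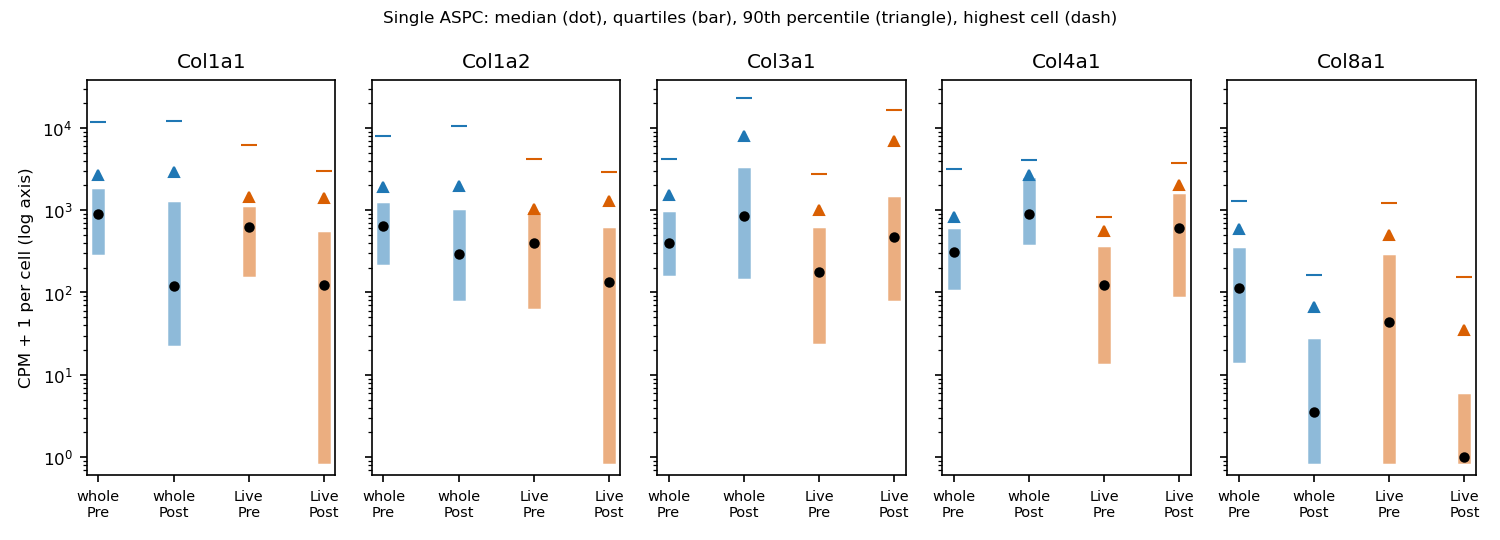
Distribution of Col1a1, Col1a2, Col3a1, Col4a1 and Col8a1 over single ASPCs of scRNA-seq batch 9_1 and Live-seq batch 9_4 (CPM + 1, log axis): dot, median; bar, quartiles; triangle, 90th percentile; dash, highest cell. The Col1a1 dot drops from 906.1 to 118.3 CPM by scRNA-seq while its triangle stays in place, the Col3a1 triangle moves up from 1532.4 to 7951.4 CPM, and Col8a1 drops as a whole.

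The labels pair 9 Live-seq libraries of ASPC_Pre with 9 of ASPC_Post as the same cell before and after induction, a pairing not checked here against the barcodes. Col1a1 was lower after induction in 8 of 9 pairs, Col1a2 in 7 and Col8a1 in 7, with 0 pairs higher for Col8a1. Col4a1 was higher in 6 and lower in 2. Col3a1 was higher in 5 and lower in 4, and Col4a2 higher in 4 and lower in 5. The collagen share of counts ran from 0.143% to 1.36% in these libraries before and from 0.00522% to 2.62% after induction. Each value rests on part of the cytoplasm of 1 cell, and these libraries also belong to the sums above.

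IBA cells, as 1 line, varied widely between batches. Col3a1 was at 259.3, 843.5 and 1509.2 CPM by scRNA-seq in batches 8_8, 9_1 and scRNA, at 3218.1, 56.2 and 1423.2 CPM by Live-seq in batches 7, 8_8 and 9_4, and at 61.8 CPM in the cells of batch 8_1 that were not sampled. Col1a1 was at 5191.8, 759.8 and 2744.9 CPM in the Live-seq batches and Col1a2 at 5559.8, 1007.4 and 2680.6 CPM, with batch 7 highest for both. Batch 8_8 was low in both techniques for Col1a1, Col1a2, Col3a1, Col6a1 and Col6a2, and batch 8_1 lower still for these genes except Col3a1, which was close to that of Live-seq batch 8_8 (56.2 CPM). Col4a1 did not follow, at 215.1, 87.3 and 156.3 CPM by scRNA-seq, 253.1, 286.4 and 129.5 CPM by Live-seq and 185.6 CPM in batch 8_1.

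**Figure D5:**
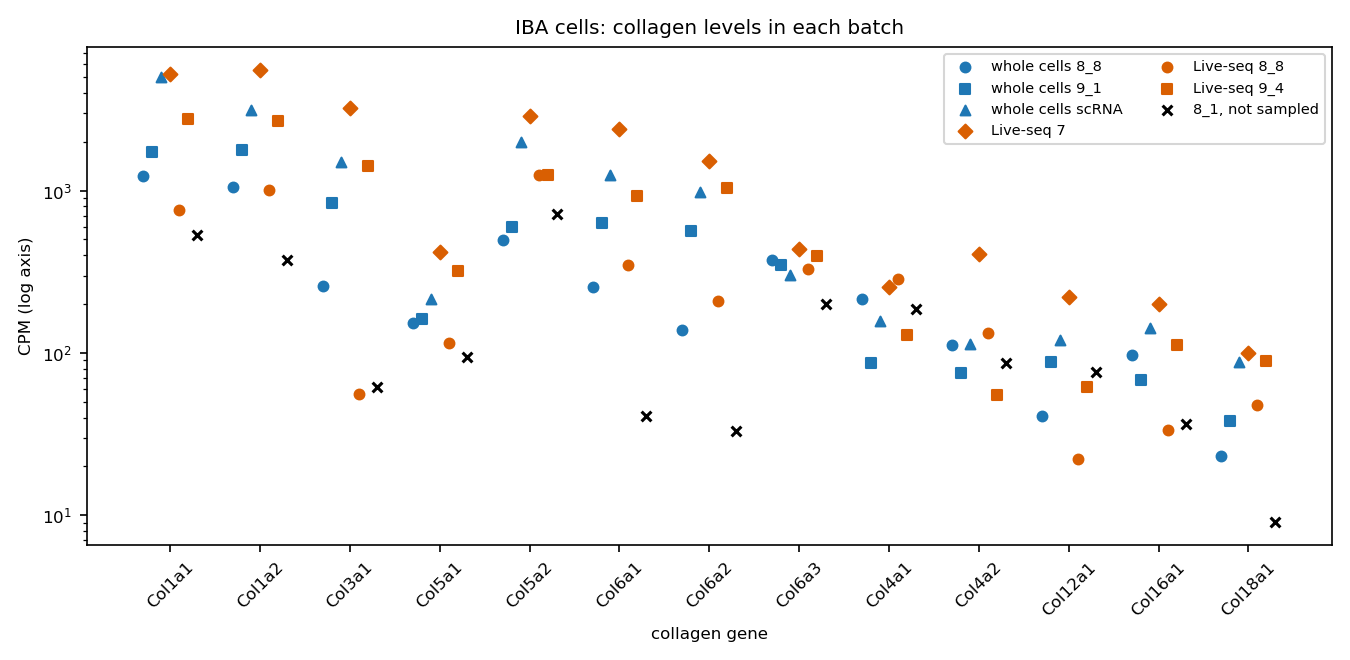
Level of 13 collagen genes in IBA cells by batch (CPM, log axis), with 1 symbol for each batch and technique and a cross for the cells of batch 8_1 that were not sampled. Col3a1 spreads from 56.2 to 3218.1 CPM, while Col4a1 stays between 87.3 and 286.4 CPM.

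Batch 8_1 also held IBA cells lysed after Live-seq. The groups were 70 cells not sampled, 49 cells lysed 1 h after and 43 cells lysed 4 h after sampling, each 1 sum from 1 batch, so values are given with no test. Col6a1 was at 40.9 (95% interval 38.4 to 43.5) CPM without sampling, 67.2 (95% interval 63.8 to 70.7) CPM after 1 h and 81.98 (95% interval 77.6 to 86.6) CPM after 4 h, with Poisson intervals. Col6a2 was at 33.2 (95% interval 30.9 to 35.5), 58.99 (95% interval 55.8 to 62.3) and 89.1 (95% interval 84.5 to 93.8) CPM. Both chains stood higher in each sampled group, beyond counting error. Col5a3 was at 3.11 (95% interval 2.45 to 3.90), 24.03 (95% interval 22.01 to 26.2) and 21.8 (95% interval 19.5 to 24.2) CPM, with a count in 16 of 70, 33 of 49 and 18 of 43 cells. Col1a1 was at 532.4, 614.5 and 714.9 CPM, but its median cell was at 397.2, 460.4 and 369.3 CPM. At 4 h, 1 cell gave 18.9% of the Col1a1 counts. Col8a1, lower in both sampled groups, was at 33.1, 20.8 and 23.2 CPM. Of 22 genes with a ratio at both times, 7 were higher at both, 8 lower at both and 7 mixed, with no such count over all genes. The spread between batches of unsampled IBA cells, above, is larger than any of these ratios for Col6a1 and Col6a2.

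The techniques were compared over IBA and ASPC_Pre. With edgeR, 0 of 25 members and 0% of 13563 genes were called for Live-seq against scRNA-seq. At an unadjusted p below 0.05 there were 2 members, Col11a1 and Col11a2, both low. In batch 8_8, the only one with both techniques, 19 of the 24 genes gave a ratio in both states: 1 was higher by Live-seq in both (Col6a1), 8 were lower in both and 10 mixed. These directions were not counted over all genes. Col1a2, for example, was at 1007.4 CPM by Live-seq and 1045.4 CPM by scRNA-seq in IBA, and at 993.6 and 1759.9 CPM in ASPC_Pre.

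RAW cells gave the background. Col1a1 reached at most 1.16 CPM in the 15 RAW sums, while its lowest mesenchymal sum held 532.4 CPM. In the comparison of IBA and ASPC_Pre with RAW, 41.3% of all genes were called by scRNA-seq (27.4% higher and 13.9% lower in the mesenchymal cells) and 6.54% by Live-seq (4.53% and 2.01%). Most members passed the filter on low counts through the mesenchymal cells, so their number of calls is not read here. A count of Col1a1 was found in 15.9% of whole RAW_Mock cells, and in 1.92% of them once each cell was thinned to 50000 counts.

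Some members were counted in RAW cells at levels like those of the mesenchymal cells. Col4a5, a basement membrane chain, was at 54, 23.9 and 82.5 CPM in the RAW_LPS sums and 24.02, 17.4 and 48.1 CPM in the RAW_Mock sums of scRNA-seq batches 8_8, 9_1 and scRNA, against 43.1, 40.4 and 75.7 CPM in IBA and 49.1 and 27 CPM in ASPC_Pre. These ranges overlap, and Col4a5 was not called, since its difference stayed below 1 on the log2 scale (log2 fold change 0.61 ± 0.22 (SE), adjusted p = 0.043). A count was found in 74.5% of whole RAW_LPS and 73.9% of whole RAW_Mock cells. Col27a1, a fibril-forming chain, was at 10.7, 8.45 and 25.9 CPM in RAW_LPS and 27.95, 19.2 and 28.2 CPM in RAW_Mock by scRNA-seq, against 9.80, 0.795 and 1.46 CPM in IBA and 0.486 and 3.53 CPM in ASPC_Pre. The ranges overlapped through the IBA sum of batch 8_8, where 89.4% of the counts came from 1 of the 2 cells that had any. By scRNA-seq a count was found in 61.1% of RAW_Mock, 53% of RAW_LPS, 10.5% of IBA and 13.3% of ASPC_Pre cells. Col27a1 was called higher in RAW (log2 fold change -2.46 ± 0.81 (SE), adjusted p = 0.03), a call that was lost without batch scRNA (adjusted p = 0.092), and it was not called in Live-seq (log2 fold change 0.64 ± 1.19 (SE), adjusted p = 0.891). Col15a1, a multiplexin, was at 7.26, 5.53 and 2.31 CPM in RAW_LPS, 22.9, 5.87 and 9.35 CPM in RAW_Mock and 0, 6.74 and 12.4 CPM in IBA (log2 fold change -0.85 ± 0.92 (SE), adjusted p = 0.474).

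Collagen chains need dedicated enzymes and carriers, and 4 lists of such genes were read in the comparison of ASPC_Pre with IBA by scRNA-seq, where 7.47% of all genes were called higher and the median log2 fold change of all genes was 0.12. Of 15 genes that modify prolines and lysines, 13 were tested and 1 rose, P3h4 (log2 fold change 1.58 ± 0.35 (SE), adjusted p = 0.0491), and the list's median on the log2 scale was 0.07. Of 10 chaperone and export genes, all were tested and 2 rose, with a median of 0.49. Of 13 genes for propeptide cleavage and cross-linking, 11 were tested and 1 rose, Loxl3 (log2 fold change 2.16 ± 0.48 (SE), adjusted p = 0.025), with a median of 0.40. Of 10 collagen receptors, 7 were tested and 0 were called, with a median of 0.81. The lowest adjusted p among the receptors was 0.0766, and 2 had an unadjusted p below 0.05, beside 4091 of all 13563 genes. No member of these lists was called lower.

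Both chaperone and export genes that rose act before secretion. Serpinh1, which encodes the collagen chaperone HSP47, was at 104.4, 89.9 and 1064.9 CPM in the IBA sums of batches 8_8, 9_1 and scRNA and 434.997 and 299.97 CPM in the ASPC_Pre sums of batches 8_8 and 9_1 (log2 fold change 2.16 ± 0.32 (SE), adjusted p = 0.00631). The IBA sum of batch scRNA exceeded both ASPC_Pre sums, so the groups overlapped, and the fit compared the states within batches. Sec23a, a component of the coat of transport vesicles that leave the endoplasmic reticulum, was at 66.9, 64.2 and 130.6 CPM in IBA and 290.6 and 344.2 CPM in ASPC_Pre without overlap (log2 fold change 2.48 ± 0.27 (SE), adjusted p = 0.00181). No gene of the 4 lists was called with edgeR for ASPC_Pre against IBA in Live-seq, after induction or between the techniques. In these comparisons 0 to 1 genes of a list had an unadjusted p below 0.05.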

How the data were processed

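The authors deposited 1 table of raw read counts per gene and library. Their processing notes name bcl2fastq 2.19.1, STAR 2.6.1c, HTSeq and mm10, and their methods describe counting without strand. RNA was amplified by enhanced Smart-seq2, so no molecular identifiers were available. Following the study's methods, 91 genes of ribosomal proteins and 20 genes detected in negative controls did not enter the totals, nor did 918 features without counts among 30452. Symbols came from GENCODE vM21 (30322 of 30450 Ensembl rows matched), and promoter windows from RefSeq (GRCm38.p6). Counts were summed per technique, state and batch where at least 3 cells were present.

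Sums were tested with edgeR 4.0.16 in R 4.3.3 (TMM normalization, quasi-likelihood F test, Benjamini-Hochberg adjustment over all genes tested), with batch as a block. The fit of Live-seq against scRNA-seq had no block. Genes were kept if 15% or more of the whole cells of some state had 2 or more counts and filterByExpr retained them. Called genes had an adjusted p below 0.05 and changed by more than 1 on the log2 scale. The labels name the batches. States of the same batch deviated together over 12797 genes (correlations of 0.243 for 8_8 and 0.272 for 9_1 by scRNA-seq, 0.142 for 8_8 and 0.112 for 9_4 by Live-seq). Steps were tested on simulated data. DESeq2 1.42.0, other normalization and filter settings, thinning to 50000 counts per cell and leaving out each batch were the alternatives. Python 3.11.15, pandas 2.3.3, numpy 2.4.6 and scipy 1.17.1 were used.

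Named genes were all members reaching 10 CPM in a mesenchymal sum, those called in a comparison other than that with RAW, and the 3 highest in RAW cells. List genes were named where called for ASPC_Pre against IBA, and calls of list genes against RAW are not given. Others named, such as Col2a1, Col13a1, Col26a1 and Col11a2, were chosen after their values were seen. Members and lists were chosen with earlier results of these data known.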

Additional observations from a re-analysis of the deposited data

Results flagged for a closer look

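Groups of 4 or 5 sums were searched for 1 value far from the others, in 8 tests, and chance marks about 1 in 20 such groups. In Live-seq RAW_LPS, Col4a5 was at 126.6 CPM in batch 7, against 29.7, 0, 126.6, 0 and 5.18 CPM over batches 5Reseq, 6, 7, 8_8 and 9_4. In Live-seq RAW_Mock, batch 7 held 72.6 CPM of Col27a1, from 2 of 20 cells, and 22.95 CPM of Col8a1, from 1 cell. In Live-seq RAW_LPS, Col27a1 had a count in batch 5Reseq only, at 0.193 CPM.

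Both Col5a2 and Col14a1 had opposite signs in the techniques. Col5a2 had a mean log2 ratio of ASPC_Pre over IBA of -1.43 in Live-seq and 0.36 by scRNA-seq, in every batch that held both states, and the test of the difference between the techniques did not pass (unadjusted p = 0.0895 and adjusted p = 1 with edgeR). Col14a1 had a log2 ratio of ASPC_Post over ASPC_Pre of -2.01 in Live-seq and 1.499 by scRNA-seq, with 0 CPM after and 0.754 CPM before induction in Live-seq and 0.348 CPM after and 0.123 CPM before by scRNA-seq. Live-seq ASPC_Post had 0 counts, so the value of -2.01 is a bound computed with the floor of 3 counts. Both Col14a1 ratios rest on few counts, and the difference between them was not tested.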

How the results depend on the processing

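For ASPC_Pre against IBA by scRNA-seq, the 4 collagens called (1514 of all genes) became 10 (2629 of all genes) with the edgeR 4 quasi-likelihood fit and 9 (1880) with cells thinned to equal counts, in each case with all 4 among them. Without 1 batch the number ran from 0 (without 9_1, with 43 of all genes called) to 6 (without 8_8, with 1537), with 2 without batch scRNA (440). Without the replicate block 5 were called (3 higher and 2 lower), with 950 of all genes. For Live-seq the number went from 0 to 2 with DESeq2, and for the difference between the techniques from 0 to 1 with DESeq2, which called 2.05% and 0.649% of all genes there, against 0.0223% and 0% with edgeR. After induction it went from 0 to 1 with the edgeR 4 fit, which called 29 genes in place of 0. For Live-seq against scRNA-seq, the replicate block left it at 0. Against RAW in Live-seq, leaving out 1 batch gave 5 (without 8_8, where 74 of all genes were called) to 13 calls, and nothing is read from these, since members passed the filter through the mesenchymal cells. The cause of these changes was not tested, beyond the smaller number of sums. Col4a6 against RAW by scRNA-seq turned to a log2 fold change of -0.42 after thinning. With ribosomal protein and negative-control genes kept in the total, the collagen share was 0.476% for ASPC_Pre and 0.615% for ASPC_Post by scRNA-seq and 0.489% for ASPC_Post by Live-seq. As a mean over single cells it was 0.960% and 0.548% for ASPC_Post. RLE scaling moved the median log2 fold change of all genes after induction from 0.05 to 0.19 and that of the difference between techniques from -0.17 to -0.32. Leaving out the IBA library that went against its label was chosen after seeing the data. It gave 5 calls, with 1709 of all genes called, against 4 and 1514 in the main fit. With 1 to 3 sums per state, ratios of genes with few counts rest on single cells.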
